A study of Homo sapiens with 4 samples.

Results

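Integrins are the receptors with which cells hold on to the extracellular matrix, and laminins are the large matrix proteins of basement membranes that several integrins bind. The genes of both families were taken from the deposited count table by their symbols, namely every integrin alpha (*ITGA*) and beta (*ITGB*) gene and every laminin alpha (*LAMA*), beta (*LAMB*), and gamma (*LAMC*) gene. This rule, which uses no measured value, found 38 of the 18449 symbols, of which 26 encode integrin chains (18 alpha and 8 beta) and 12 encode laminin chains (5 alpha, 4 beta, and 3 gamma). All 38 were among the 18066 genes tested, and 26 had at least 10 counts in every library.

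The libraries came from BT-16 and CHLA-266, established human cell lines of the MYC subtype of atypical teratoid/rhabdoid tumor (AT/RT), a brain tumor of young children that is defined by loss of SMARCB1. Each cell line was sequenced untreated and after treatment with 1 µM doxorubicin and 5 µM etoposide, which act on topoisomerase II, and 1 µM vincristine, which blocks microtubules, given one after the other on consecutive days. The treated cells were left to regrow, so these libraries describe regrown cells and not the acute response. Each cell line gave 1 library per condition, which makes 4 libraries and 2 per condition, and the cell lines stand in as replicates. The sources do not say whether the untreated and treated cultures of a line were run more than once, and a difference between the lines in their response has no test. The total count was 75087194 and 66192504 in the untreated libraries of BT-16 and CHLA-266 and 51489713 and 49849258 in the treated ones, and more genes had a count after treatment (17815 and 17114, against 16079 and 15464). *MYC* went from 14275 to 6804 counts in the BT-16 line and from 11515 to 7505 in CHLA-266. It was lower after treatment (log2 fold change -0.59, adjusted *p* = 0.0289 in edgeR). *SMARCB1* had 827 to 1394 counts per library. Counts per gene do not show which exons were read, so the *SMARCB1* counts do not check the label.

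An integrin is a pair of 1 alpha and 1 beta chain, and the pair decides what the cell can bind. *ITGB1* pairs with most alpha chains, among them the laminin receptors *ITGA3*, *ITGA6*, and *ITGA7*, while *ITGAV* pairs with several beta chains and binds ligands that carry an arginine-glycine-aspartate (RGD) sequence. A laminin is a trimer of an alpha, a beta, and a gamma chain, and the alpha chain carries the main binding site for integrins. RNA levels say nothing about which chains meet at the cell surface or in the matrix. They are bulk values as well, in which fewer cells of a type and less RNA per cell cannot be told apart.

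After treatment, 16 of the 38 genes were upregulated and 3 were downregulated in edgeR's quasi-likelihood test at an adjusted *p* value under 0.05. For comparison, 16.1% of all genes tested were upregulated and 19.1% were lower after treatment. The 38 genes had a median log2 fold change of 1.14 (1.22 for the integrins and 0.24 for the laminins), beside 0.24 for all genes. With the cell line as a block, 21 were upregulated and 4 downregulated, against 17.9% and 23.7% of all genes. The 38 genes fell into 2 very different classes of abundance. In the class of 15 genes with at least 500 counts in any library, 3 were upregulated (*ITGA6*, *ITGAV*, and *ITGA7*) and 3 were downregulated (*ITGB5*, *LAMC3*, and *ITGAE*), while 11.4% and 34.5% of all genes of such abundance were. The other 23 genes stayed under 500 counts in every library, and 13 of them were upregulated and 0 downregulated, beside 21.7% and 0.801% of all genes that low. None of the 23 had an unadjusted *p* under 0.05 for lower expression in edgeR, DESeq2, or limma.

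**Figure D1:**
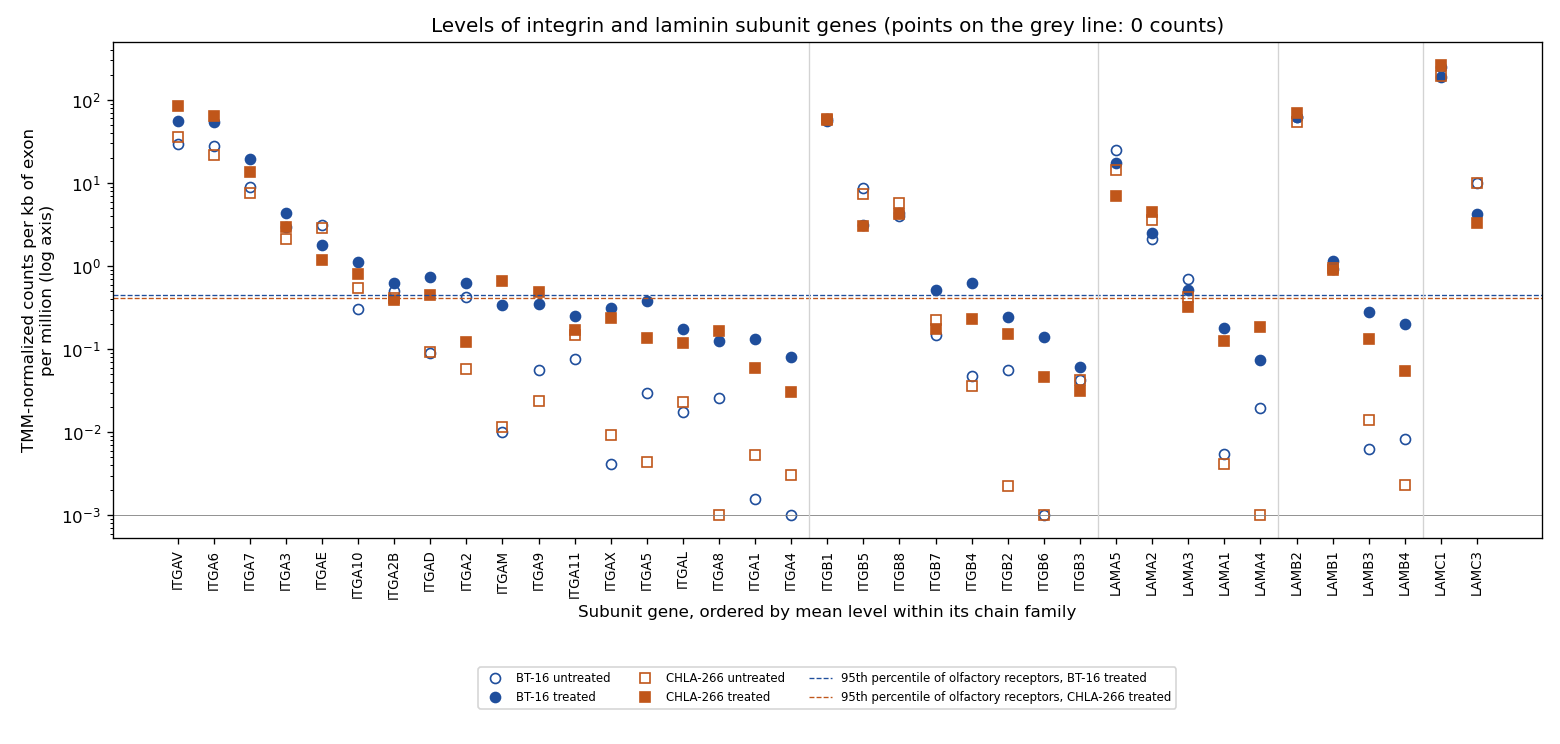
Each point is 1 library and gives the level of 1 subunit gene (37 of the 38 are drawn) as TMM-normalized CPM per kilobase of exon on a log axis, with untreated libraries open and treated libraries filled, and genes at 0 counts on the grey line. *LAMC1*, *LAMB2*, *ITGB1*, *ITGAV*, and *ITGA6* stand highest, and many of the low genes lie under the dashed lines, the 95th percentile of olfactory receptor genes in the treated libraries (0.455 and 0.409).

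The promoters of 4 integrin genes that moved are shown here, because *ITGA6* and *ITGAV* were upregulated and *ITGB5* and *ITGAE* downregulated in the same cells. They are RefSeq sequences on GRCh38.p14, 5′ to 3′ on the strand of the gene, and end at the base before the annotated start. Capitals mark matches to any of 5 motifs that were searched on both strands, TGANTCA (AP-1), GGAATG (TEAD), CACCTG (the E-box of ZEB and SNAI factors), CCGGAAGT (ETS), and GGGCGG (SP1). The *ITGA6* window is chr2:172427086-172427335 (plus strand, 250 bases), the *ITGAV* window is chr2:186589806-186590009 (plus strand, 204 bases, cut where the first annotated exon begins), the *ITGB5* window is chr3:124901419-124901668 (minus strand, 250 bases), and the *ITGAE* window is chr17:3801189-3801438 (minus strand, 250 bases).
ITGA6: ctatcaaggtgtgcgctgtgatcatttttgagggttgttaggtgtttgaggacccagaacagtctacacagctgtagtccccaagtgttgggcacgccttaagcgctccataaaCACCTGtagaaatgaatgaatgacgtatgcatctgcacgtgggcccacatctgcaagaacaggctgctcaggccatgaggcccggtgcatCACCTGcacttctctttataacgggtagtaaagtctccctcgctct
ITGAV: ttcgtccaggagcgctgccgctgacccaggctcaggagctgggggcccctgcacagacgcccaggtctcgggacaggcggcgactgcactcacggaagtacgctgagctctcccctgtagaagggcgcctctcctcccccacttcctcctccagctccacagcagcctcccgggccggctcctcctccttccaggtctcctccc
ITGB5: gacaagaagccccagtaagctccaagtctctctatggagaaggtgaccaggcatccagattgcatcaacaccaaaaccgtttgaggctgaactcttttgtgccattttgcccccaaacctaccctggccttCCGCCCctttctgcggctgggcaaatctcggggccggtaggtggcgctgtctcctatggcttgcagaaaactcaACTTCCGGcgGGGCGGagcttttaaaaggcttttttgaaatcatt
ITGAE: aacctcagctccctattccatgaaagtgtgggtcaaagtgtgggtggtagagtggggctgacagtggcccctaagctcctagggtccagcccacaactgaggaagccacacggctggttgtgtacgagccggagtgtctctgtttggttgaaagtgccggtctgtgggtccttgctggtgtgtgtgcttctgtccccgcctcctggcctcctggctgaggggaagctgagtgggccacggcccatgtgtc
Counted back from the start, *ITGA6* has CACCTG at -136 and -46, and *ITGB5* has the reverse complement of GGGCGG at -119, the reverse complement of CCGGAAGT at -45, and GGGCGG at -35. The *ITGAV* and *ITGAE* windows hold none of the 5 letter strings. Of the 38 genes, 26 had an entry in the RefSeq table, which did not include *ITGA7* and *LAMC3*. GGGCGG was found for 13 of these 26 genes (50.0%, against 42.6% of all 35116 promoters), CACCTG for 7 (26.9% against 17.5%), GGAATG for 4 (15.4% against 11.9%), and CCGGAAGT and TGANTCA for 1 each (3.8% against 3.4% and 6.6%). The table lists 33 promoters for the 26 genes, and only the first one listed for each gene was searched, in the 250 bases before its start, whereas every listed promoter entered the share of all promoters. These are counts of letters in a window and say nothing about binding of a factor.

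*ITGAV*, an alpha chain of RGD-binding integrins (chr2:186590010-186680901, plus strand, hg38), was the alpha gene with the highest count. It rose from 39507 to 62442 counts in the BT-16 line and from 42867 to 84615 in CHLA-266 cells, although the treated libraries were smaller. As TMM-normalized CPM per kilobase of exon, the unit of every level given here, these are 29.6 and 55.9 in the BT-16 line and 36.0 and 84.2 in CHLA-266. Both treated libraries stood above both untreated ones. For such separations, here and for the genes below, the share among all genes was not counted. With 2 libraries per condition, a separation in either direction has an exact permutation *p* of 0.333. The log2 fold change was 1.09 ± 0.23 SE (adjusted *p* = 0.00763 in edgeR), and the log2 ratio within a line was 0.92 in BT-16 (95% interval 0.90 to 0.93, counting error only) and 1.23 in CHLA-266 (1.21 to 1.24).

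*ITGA6*, the most abundant of the laminin-binding alpha chains (chr2:172427354-172506459, plus strand), went from 12864 to 20781 counts in the BT-16 line and from 9046 to 22445 in CHLA-266. The groups did not overlap, and the CHLA-266 library was the lower of the untreated and the higher of the treated. Its log2 fold change was 1.25 ± 0.19 SE (adjusted *p* = 0.00174 in edgeR), with 0.95 (0.92 to 0.98) in the BT-16 line and 1.56 (1.52 to 1.59) in CHLA-266. *ITGA7*, a laminin receptor best known from skeletal muscle (chr12:55684568-55716404, minus strand), rose from 5558 to 10339 counts in the BT-16 line and from 4296 to 6331 in the CHLA-266 line (log2 fold change 1.00 ± 0.21 SE, adjusted *p* = 0.00765 in edgeR). Here BT-16 moved further, with a log2 ratio of 1.15 against 0.80 in CHLA-266. *ITGA3*, the laminin-binding alpha chain of epithelia and glia (chr17:50055968-50090481, plus strand), had 2007 and 2461 counts in the BT-16 line and 1266 and 1517 in CHLA-266. It was higher in the treated library of each line, with log2 ratios of 0.55 and 0.51, but the treated CHLA-266 count lay under the untreated BT-16 count. Its adjusted *p* was 0.127 without and 0.0183 with a block for the cell line in edgeR.

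*ITGAE* encodes the alpha chain that T cells of epithelia use to bind E-cadherin and lies on chr17:3714628-3801188 (minus strand). It fell from 1422 to 694 counts in the BT-16 line and from 1178 to 402 in CHLA-266, so it was the only abundant alpha gene that was downregulated (log2 fold change -1.01 ± 0.27 SE, adjusted *p* = 0.0215 in edgeR). With upper-quartile factors, library totals, or the filter of 10 counts in every library, its adjusted *p* was 0.0962, 0.0701, and 0.0568, and with 1 library left out it was between 0.000334 (without treated BT-16) and 0.0749 (without untreated BT-16), with 0.0539 and 0.0605 without untreated and treated CHLA-266. Its exons share 7.6% of their length with genes on the opposite strand, among them *HASPIN*, and the sources do not say whether strand was used in counting.

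*ITGB1*, the common beta chain (chr10:32887273-33005792, minus strand), had the highest integrin counts of both untreated libraries, with 59951 and 47071 counts in the BT-16 line and 52335 and 43471 in CHLA-266. Its level was 59.7 and 55.9 in the BT-16 line and 58.4 and 57.5 in CHLA-266, so that all 4 libraries lay close together. Its log2 fold change was -0.06 ± 0.16 SE (adjusted *p* = 0.787 in edgeR), and this sign turned with DESeq2's size factors (0.01), library totals (0.17), and upper-quartile factors (0.29). *ITGB5*, a partner of *ITGAV* that binds vitronectin (chr3:124761948-124901418, minus strand), fell from 3913 to 1181 counts in the BT-16 line and from 2999 to 1030 in CHLA-266. Both treated libraries lay far under both untreated ones (log2 fold change -1.39 ± 0.18 SE, adjusted *p* = 0.000773 in edgeR), and the lines moved alike, by log2 ratios of -1.47 and -1.30. *ITGB8*, the *ITGAV* partner that binds latent TGF-β (chr7:20330702-20415754, plus strand), had 4159 and 3848 counts in the BT-16 line and 5357 and 3346 in CHLA-266. After normalization it was higher after treatment in BT-16 (log2 ratio 0.14, 0.08 to 0.21) and lower in CHLA-266 (-0.44, -0.50 to -0.37), and it did not pass the test (log2 fold change -0.17, adjusted *p* = 0.510 in edgeR), with the sign of the fitted value turned by library totals and upper-quartile factors.

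**Figure D2:**
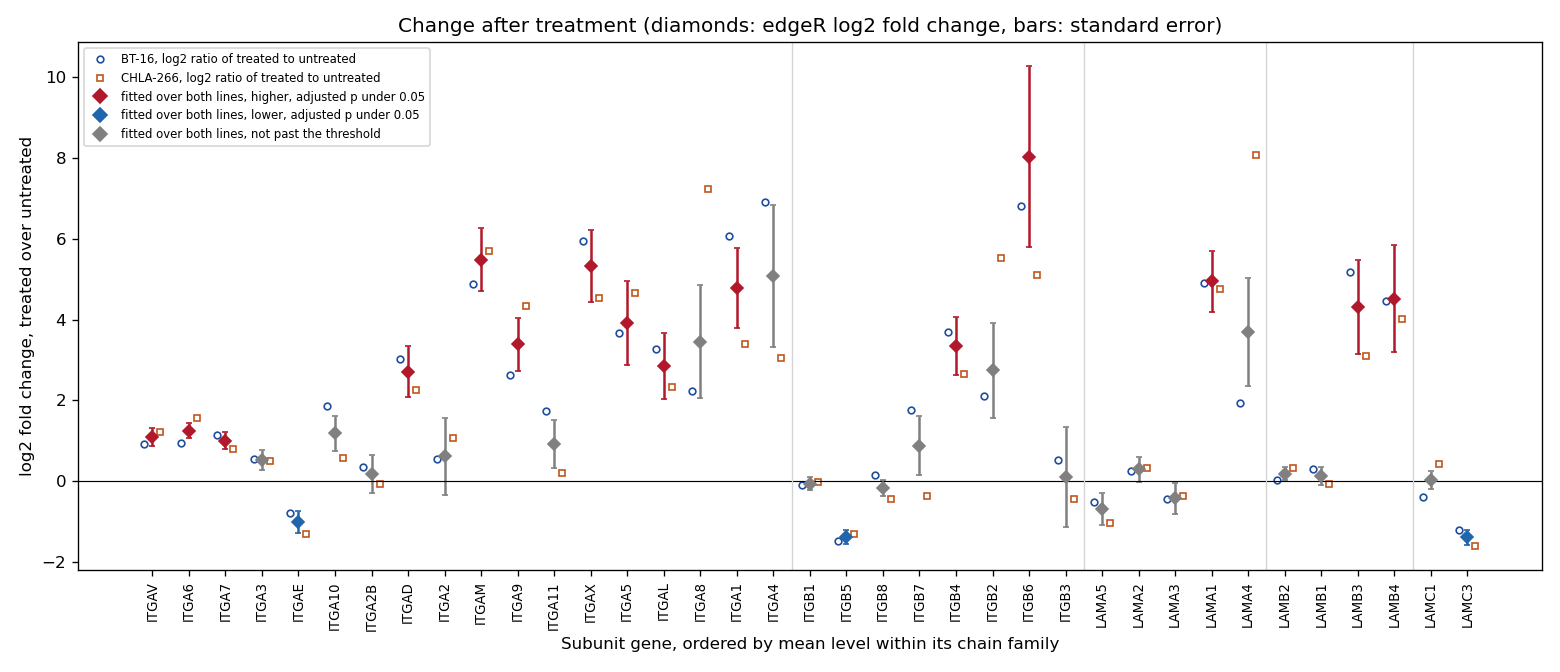
For each of 37 subunit genes, the diamond gives the log2 fold change of treated over untreated cells fitted by edgeR over both cell lines, the bar gives its standard error, and the open symbols give the log2 ratio within BT-16 and CHLA-266. The abundant genes at the left of each chain family lie within about the range of *LAMC3* (-1.39) to *ITGA6* (1.25), whereas the low genes further right reach values that rest on few untreated counts, such as *ITGB6* with 0 in both untreated libraries.

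Because the chains pair, the alpha and beta genes were also compared with each other inside each library, which no scaling between libraries can change. The summed alpha chains over the summed beta chains, in counts per kilobase of exon, gave a ratio of 1.02 in untreated and 2.17 in treated BT-16, and 1.00 and 2.60 in CHLA-266. The treated ratio was thus 2.13 and 2.60 times the untreated one. In normalized levels, the alpha sum went from 74.0 to 140.8 in BT-16 and from 72.0 to 170.3 in CHLA-266, while the beta sum went from 72.7 to 65.0 and from 71.9 to 65.4. *ITGAV* over the sum of *ITGB5* and *ITGB8* was 2.33 and 7.42 in the BT-16 line and 2.72 and 11.6 in CHLA-266. *ITGA6* over *ITGB1* was 0.468 and 0.962 in the BT-16 line and 0.377 and 1.13 in CHLA-266, and the 3 laminin-binding alpha chains together over *ITGB1* went from 0.666 to 1.39 and from 0.544 to 1.41. Each of these ratios was higher in the treated library of both lines. These ratios are descriptions without a test, and their absolute size depends on the length used for each gene. With the canonical transcript in place of all exons, a choice made after seeing the data, alpha over beta was 0.579 and 1.19 in the BT-16 line and 0.612 and 1.47 in CHLA-266.

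Within the alpha chains, *ITGAV* held 40.0% and 39.7% of the summed alpha counts per kilobase in the BT-16 line and 50.0% and 49.5% in CHLA-266. *ITGA6* held 37.7% and 38.2% in the BT-16 line and 30.5% and 37.97% in CHLA-266. Among the beta chains, *ITGB1* took 82.1% and 86% in the BT-16 line and 81.2% and 87.9% in CHLA-266, and *ITGB5* went from 12.0% to 4.82% and from 10.4% to 4.65%. With canonical transcripts *ITGB5* held 5.06% and 1.98% in the BT-16 line and 4.41% and 1.89% in CHLA-266, and *ITGA6* held 21.9% and 22.3% and 16.6% and 21.3% of the alpha chains, so the size of these shares depends on the length as well. *ITGB8* over *ITGB5* went from 0.457 to 1.40 in BT-16 and from 0.768 to 1.40 in CHLA-266, so the ratio was higher in the treated library of each line. Which of these *ITGAV* partners was the higher in the untreated libraries depends on the length, since the untreated ratios were 1.06 and 1.79 with raw counts and 0.526 and 0.884 with canonical transcripts.

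**Figure D3:**
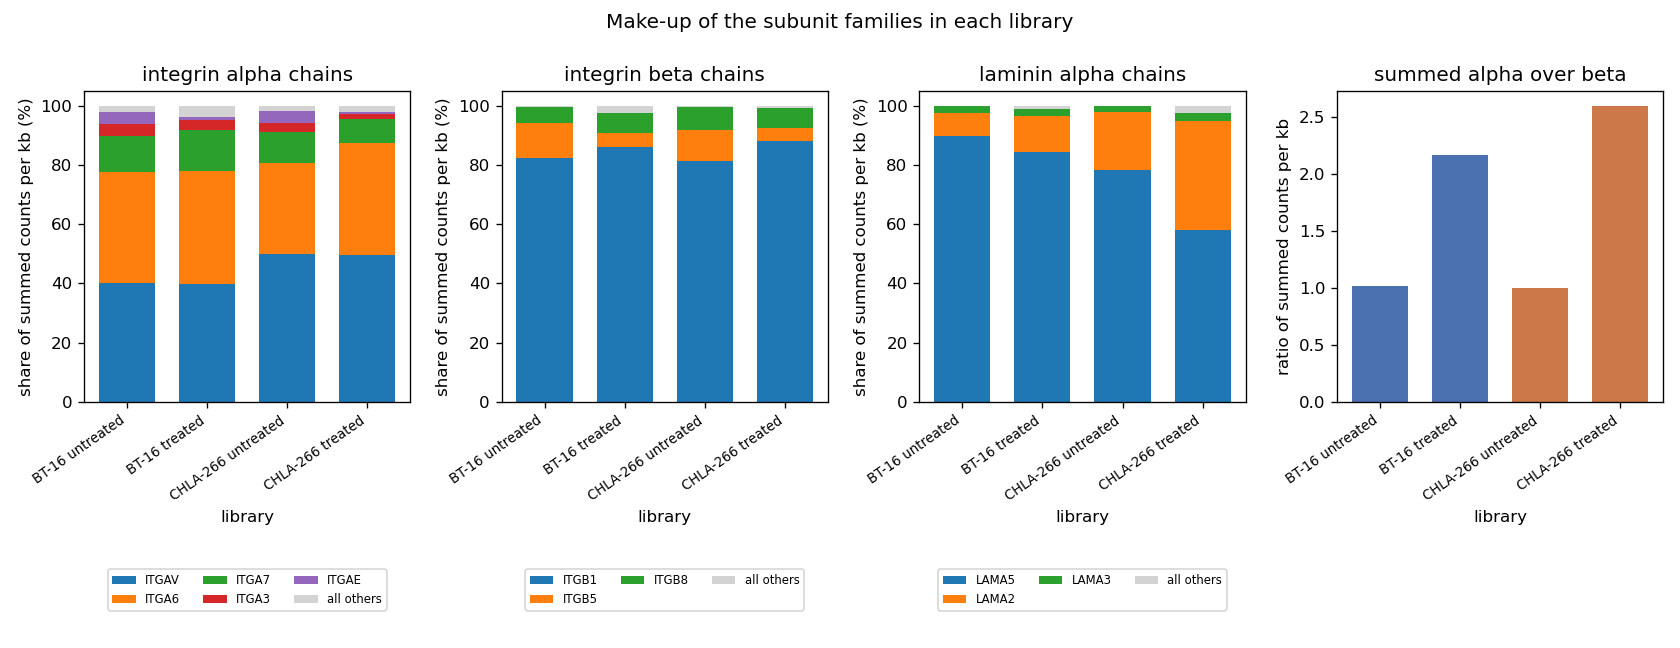
Stacked bars give the share of each chain in the summed counts per kilobase of exon of its family in each library, in percent, and the last panel gives the ratio of summed integrin alpha to summed integrin beta chains. The ratio is 1.02 and 1.00 in the untreated and 2.17 and 2.60 in the treated libraries, and *LAMA5* loses share to *LAMA2* in both lines, most in CHLA-266.

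The laminin chains present in quantity were *LAMA5*, *LAMA2*, *LAMB2*, *LAMC1*, and *LAMC3*. *LAMC1*, the gamma chain of most laminins (chr1:183023420-183145592, plus strand), had the highest count of all 38 genes, with 146004 and 92575 counts in the BT-16 line and 102278 and 116243 in CHLA-266. Its normalized level went from 250.6 to 189.6 in BT-16 and from 196.7 to 264.8 in CHLA-266, and the conditions overlapped. The log2 ratio was -0.40 (-0.41 to -0.39) in the BT-16 line and 0.43 (0.42 to 0.44) in CHLA-266, and it kept these signs with library totals (-0.11 and 0.59) and with DESeq2's size factors (-0.30 and 0.47). Over both lines the log2 fold change was 0.02 ± 0.22 SE (adjusted *p* = 0.942 in edgeR). *LAMC3*, a less common gamma chain (chr9:131009174-131094473, plus strand), fell from 6132 to 2221 counts in the BT-16 line and from 5478 to 1526 in CHLA-266, with all treated values below all untreated values. It was the only laminin gene downregulated without the block (log2 fold change -1.39 ± 0.18 SE, adjusted *p* = 0.000792 in edgeR). *LAMC1* over *LAMC3* went from 25.2 to 44.1 in BT-16 and from 19.8 to 80.6 in CHLA-266 in counts per kilobase.

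*LAMA5*, the alpha chain of the most widespread basement membrane laminins (chr20:62307955-62367312, minus strand), had 24911 and 14482 counts in the BT-16 line and 12671 and 5241 in CHLA-266. It was lower after treatment in each line (log2 ratio -0.53, -0.56 to -0.50, and -1.03, -1.08 to -0.98), but treated BT-16 still had more than untreated CHLA-266. The adjusted *p* was 0.201 in edgeR (log2 fold change -0.69, SE 0.40) but 0.000127 with the block for the line (log2 fold change -0.78). The call of *LAMA5* thus depended on the block. Without treated BT-16 and without the block, the fitted log2 fold change was -1.49. That fit sets treated CHLA-266 alone against both untreated lines. *LAMA5* was lower in CHLA-266 than in BT-16, so the difference between the lines enters this value. *LAMA2*, the alpha chain of muscle and nerve laminins (chr6:128883138-129516566, plus strand), had 3866 and 3868 counts in the BT-16 line and 5872 and 6199 in CHLA-266 and did not pass the test (log2 fold change 0.30, adjusted *p* = 0.461 in edgeR). *LAMA5* over *LAMA2* went from 11.9 to 6.92 in BT-16 and from 3.99 to 1.56 in CHLA-266 per kilobase. With canonical transcripts it went from 5.47 to 3.18 and from 1.83 to 0.717, and with raw counts treated CHLA-266 had 0.845, so the order of both chains in treated CHLA-266 turns with the length, while the ratio was lower in the treated library of each line in all 3 settings. The share of *LAMA5* among the laminin alpha chains was 89.9% and 84.2% in the BT-16 line and 78.1% and 57.8% in CHLA-266, and that of *LAMA2* was 7.55% and 12.2% in the BT-16 line and 19.6% and 37.0% in CHLA-266.

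*LAMB2*, the beta chain typical of the kidney filter, the synapse, and vessel walls, took 97.5% to 98.5% of the beta chains in every library and had 29278 and 25104 counts in the BT-16 line and 23296 and 24846 in CHLA-266 (log2 fold change 0.18 ± 0.17 SE, adjusted *p* = 0.395 in edgeR). With canonical transcripts its share was 94.6% to 96.4%. *LAMB1*, the other widely used beta chain, had 1184 and 1228 counts in the BT-16 line and 1080 and 865 in CHLA-266 (adjusted *p* = 0.666). *LAMA3*, an alpha chain of epithelial laminins, had 700 and 428 counts in the BT-16 line and 374 and 244 in CHLA-266 (log2 fold change -0.42, adjusted *p* = 0.398). In normalized levels, the summed beta chains were 62.8 and 64.9 in the BT-16 line and 56.1 and 70.7 in CHLA-266, and the summed gamma chains were 4.15 and 2.99 times the beta chains in the BT-16 line and 3.69 and 3.80 times in CHLA-266. The gamma chains were therefore read more than the beta chains in all 4 libraries.

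The 23 low genes had 0 to 232 counts in the untreated and 11 to 406 in the treated libraries. Their median log2 fold change was 3.39, beside 2.51 for all genes under 500 counts (1.98 with genes at 0 in both untreated libraries set to their lower bound against 3 counts per library, which leaves 3.39 for the 23 as it is). In both treated libraries all 38 genes had at least 10 counts, whereas 8 and 12 had fewer in untreated BT-16 and CHLA-266. A reference for such counts comes from olfactory receptor genes, which belong to sensory neurons of the nose. Of 380 such genes with an exon length, 259 and 290 had 0 counts in untreated BT-16 and CHLA-266, but only 87 and 171 did in the treated libraries. Their median went from 0 to 4.07 counts per kilobase in BT-16 and from 0 to 1.28 in CHLA-266, and of the 336 tested 27 were upregulated and 0 downregulated in edgeR (also 0 by DESeq2 and limma, and 0 at an unadjusted *p* under 0.05). Of the 16 upregulated genes, *ITGA6*, *ITGAV*, *ITGA7*, and *ITGAD* stood above the 95th percentile of these receptors in both treated libraries (26.3 and 21.2 counts per kilobase), and the other 12 did not. How far this general gain of low counts enters the calls of the 13 low genes was not tested.

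Among the low laminins, *LAMA1*, an alpha chain of early embryonic basement membranes, went from 6 to 164 counts in the BT-16 line and from 4 to 103 in CHLA-266 (log2 fold change 4.95 ± 0.76 SE, adjusted *p* = 0.0019 in edgeR), and 11.1% of its exon length is shared with genes on the opposite strand. *LAMB3*, a beta chain of epithelial laminins, went from 2 to 76 and from 4 to 32 counts (4.31, adjusted *p* = 0.0218). *LAMB4*, a little-studied beta chain, went from 4 to 82 and from 1 to 20 counts (4.51, adjusted *p* = 0.0294). All of these genes had higher counts in both treated than in both untreated libraries, but the share of all low genes that did so was not counted. *LAMA4*, an alpha chain of vessel walls, had 16 and 52 counts in the BT-16 line and 0 and 114 in CHLA-266 and passed the test only with the block (adjusted *p* = 0.0617 without and 0.0215 with it).

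Several of the low genes encode integrins of white blood cells. The alpha chains *ITGAM* and *ITGAX*, which pair with *ITGB2* on myeloid cells, went from 4 to 111 and from 2 to 129 counts in the BT-16 line and from 4 to 196 and from 4 to 87 in CHLA-266. Their log2 fold changes were 5.49 and 5.33 (adjusted *p* = 0.00127 and 0.00275 in edgeR). *ITGAD* went from 27 to 188 and from 25 to 103 counts (2.71, adjusted *p* = 0.0116), and *ITGAL*, the alpha chain of lymphocytes, from 12 to 101 and from 14 to 61 (2.85, adjusted *p* = 0.0258). Treated and untreated counts did not overlap for any of these 4 genes, but the share of all low genes that separate in this way was not counted. The shared beta chain *ITGB2* had 28 and 102 counts in the BT-16 line and 1 and 58 in CHLA-266 and an adjusted *p* of 0.100 without and 0.0223 with the block. The alpha partners of *ITGB2* together went from 0.121 to 1.57 in BT-16 and from 0.136 to 1.47 in CHLA-266 in normalized level. The 8 leukocyte markers summed to 1207 and 804 counts in the BT-16 line and 642 and 405 in CHLA-266, with *CD3E* at 0 except in treated BT-16 (43 counts), *CD14* at 0 in untreated BT-16, and *LYZ* at 0 in untreated CHLA-266. *PTPRC*, the gene of CD45, had 287 and 167 counts in the BT-16 line and 30 and 64 in CHLA-266, and among the markers *CORO1A* was downregulated. These sums are raw counts, the treated libraries were smaller, and *CORO1A* alone had 743 and 132 counts in the BT-16 line and 421 and 134 in CHLA-266. Without it, a choice made after its values were seen, the other 7 markers summed to 464 and 672 and to 221 and 271 counts. Single markers among them went the other way. *PTPRC* had fewer counts in treated than in untreated BT-16, and *CSF1R* had 166 untreated and 98 treated counts in CHLA-266.

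The alpha chains of the other families that passed the test were *ITGA1*, *ITGA5*, and *ITGA9*. *ITGA9*, a receptor for tenascin and other ligands, went from 32 to 167 counts in the BT-16 line and from 12 to 212 in CHLA-266 (log2 fold change 3.39 ± 0.65 SE, adjusted *p* = 0.00537 in edgeR), and 9.2% of its exon length is shared with *ITGA9-AS1* on the opposite strand. *ITGA5*, the fibronectin receptor, went from 15 to 164 and from 2 to 53 counts (3.91, adjusted *p* = 0.0198), and *ITGA1*, a collagen receptor, from 2 to 141 and from 6 to 57 (4.78, adjusted *p* = 0.00734). The exons of *ITGA1* hold those of *PELO* (5.8% of their length on the same strand), so its reads are uncertain. *ITGB4*, the hemidesmosome chain that pairs with *ITGA6*, went from 22 to 242 counts in the BT-16 line and from 15 to 82 in CHLA-266 (3.35, SE 0.72, adjusted *p* = 0.00842). Several calls of low genes were lost when 1 library was left out. Without treated BT-16, the adjusted *p* in edgeR was 0.0782 for *ITGB4*, 0.0581 for *ITGAD*, 0.116 for *ITGA5*, 0.136 for *ITGAL*, 0.173 for *ITGB6*, 0.193 for *LAMB3*, and 0.346 for *LAMB4*. Without untreated BT-16 it was 0.0704 for *ITGAL*, 0.0586 for *ITGB6*, and 0.0636 for *LAMB3*, and without untreated CHLA-266 it was 0.0527 for *ITGAL*, 0.0573 for *ITGB6*, and 0.0836 for *LAMB4*. The fitted values of these genes stayed above 0 in each case. *ITGB6*, an *ITGAV* partner of epithelia, had 0 counts in both untreated libraries and 47 and 14 in treated BT-16 and CHLA-266, which is at least 18.7-fold and at least 5.53-fold higher against a floor of 3 counts per library (adjusted *p* = 0.0279 in edgeR), and 16.7% of its exon length is shared with another gene model on the same strand. The 8 epithelial markers summed to 23373 and 49234 counts in the BT-16 line and to 9768 and 17922 in CHLA-266, most of it *KRT8* and *KRT18*, with *CDH1* and *KRT18* upregulated. *KRT5*, *KRT14*, and *GRHL2* were at 0 in untreated BT-16 and *ESRP1* in untreated CHLA-266. The 4 endothelial markers summed to 139 and 593 counts in the BT-16 line and 68 and 348 in CHLA-266 (2 upregulated, *VWF* and *CDH5*, the latter at 0 in untreated CHLA-266), the 4 fibroblast markers to 548 and 889 and to 190 and 337 (*COL3A1* upregulated, at 0 in both untreated libraries, with *LUM* at 0 in both CHLA-266 libraries), and the pericyte markers *PDGFRB* and *CSPG4* to 102 and 265 and to 120 and 205 (0 called by edgeR, DESeq2, or limma, 1 at an unadjusted *p* under 0.05). Single markers did not rise. In BT-16 cells *CLDN5* went from 75 to 48 counts, *LUM* from 16 to 8, and *DCN* had 36 untreated and 36 treated. In CHLA-266 cells *CLDN5* went from 24 to 30 and *DCN* from 4 to 24. Of all genes 16.1% were upregulated, and of those under 500 counts 21.7%. The part of epithelial, endothelial, fibroblast, and pericyte cells or of their genes in the calls of the low integrins was not tested.

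The remaining 10 low genes did not pass the test without the block. They were *ITGA2*, *ITGA2B*, *ITGA4*, *ITGA8*, *ITGA10*, *ITGA11*, *ITGB2*, *ITGB3*, *ITGB7*, and *LAMA4*, with log2 fold changes of 0.11 (*ITGB3*) to 5.07 (*ITGA4*) and adjusted *p* values of 0.0523 to 0.952. *ITGA4*, which pairs with *ITGB1* or *ITGB7* on lymphocytes, had 0 and 50 counts in BT-16, at least 19.9-fold higher, and 2 and 17 in CHLA-266, a log2 ratio of 3.05 (1.26 to 6.49), and 26.4% of its exon length is shared with *CERKL* on the opposite strand. *ITGB7* shares 42.3% with *ZNF740* on the opposite strand and *ITGB3* 33.2% with another gene model on the same strand, so their counts are uncertain. The platelet chains *ITGA2B* and *ITGB3* had 117 to 208 and 11 to 24 counts without a direction shared by the lines. The 5 platelet markers summed to 259 to 566 counts, with *PPBP* at 0 in all 4 libraries. *ITGA8*, *ITGA10*, *ITGB2*, and *LAMA4* were upregulated with the block, at adjusted *p* values of 0.0456, 0.0183, 0.0223, and 0.0215.

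The cell lines themselves differed in few of these genes. With the condition in the model, CHLA-266 was higher than BT-16 in 1 gene and lower in 2, while 0.836% and 1.46% of all genes were. *LAMA5* was lower in CHLA-266 (log2 difference -1.06, SE 0.15, adjusted *p* = 4.19e-05 in edgeR), with a level of 25.3 in BT-16 against 14.4 in CHLA-266 among the untreated and 17.5 against 7.06 among the treated libraries. *LAMA2* was higher in CHLA-266 (0.80, SE 0.15, adjusted *p* = 0.00129), with 3.61 against 2.12 untreated and 4.52 against 2.53 treated. *ITGA2*, the collagen-binding alpha chain of platelets and epithelia, had 232 and 282 counts in the BT-16 line and 28 and 50 in CHLA-266 (-2.60, SE 0.57, adjusted *p* = 0.00736). The balance of *LAMA5* to *LAMA2* thus differed between the lines in both conditions. With the cell line alone in the model, edgeR called 0 of the 38 genes (1 gene at an unadjusted *p* under 0.05). DESeq2 with the condition called 1 higher and 2 lower. When a library was left out, the condition was dropped from the model as well, since no spread would remain. Such fits cannot show what a single library adds to these calls.

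A list of 52 genes that work with these chains was examined beside them. Of these, 16 were upregulated and 7 downregulated, beside 16.1% and 19.1% of all genes, with a median log2 fold change of 0.54 against 0.24 for all genes. With the block the split was 19 and 10, beside 17.9% and 23.7%. With upper-quartile factors the split was 21 and 3, beside 4361 and 1895 of all 18066 genes. With library totals it was 19 and 3, beside 3678 and 2353 of all genes. Among other laminin receptors, *BCAM*, which binds *LAMA5* laminins, rose from 13695 to 26141 counts in the BT-16 line and from 11209 to 38652 in CHLA-266 (log2 fold change 1.65 ± 0.24 SE, adjusted *p* = 0.00141 in edgeR). By the mean of the 4 libraries *BCAM* was the most abundant of the 4 per kilobase, but in both untreated libraries it stood below *DAG1* and *SDC1* (2741 and 2243 counts per kilobase, against 3328 and 2869 and against 4129 and 3190). *DAG1*, the gene of dystroglycan, had a log2 fold change of 0.84 (adjusted *p* = 0.00719). The syndecan *SDC1* fell from 14918 to 4044 and from 11527 to 2556 counts (-1.76, adjusted *p* = 0.000487). Treated and untreated counts of *BCAM* and *SDC1* did not overlap.

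Among basement membrane partners, 2 of 9 were upregulated and 1 downregulated. For this and each following group, the shares of all genes were 16.1% and 19.1%, and no group was tested against them. *COL7A1*, the anchoring fibril collagen, rose from 543 to 3286 counts in the BT-16 line and from 593 to 3769 in CHLA-266 (log2 fold change 2.89 ± 0.21 SE, adjusted *p* = 3.41e-05 in edgeR). The laminin linker *NID1* went from 1 to 66 and from 4 to 21 counts (4.23, adjusted *p* = 0.042, and 0.0822 with the block). *NTN4*, the gene of the laminin-binding netrin-4 and the most abundant of the 9 per kilobase, had a log2 fold change of 0.59 (adjusted *p* = 0.183 without and 0.00528 with the block). Of 10 other integrin ligands, 4 were upregulated and 0 downregulated (also 0 by DESeq2 and limma and 0 at an unadjusted *p* under 0.05). These were *SPP1* (osteopontin, 3.32), *VTN* (vitronectin, 2.61), *TNC* (tenascin-C, 2.22), and *FN1* (fibronectin, 1.21), which are ligands of *ITGAV* or *ITGA9* integrins among others. *SPP1* rose from 3633 to 22130 counts in the BT-16 line and from 619 to 12608 in CHLA-266. It had the most counts per kilobase of the 10 in both treated libraries, while *FBN1* (fibrillin-1) was above it in both untreated ones (697 and 372.5, against 501.1 and 85.4). With the block, *TNC* lost the call (adjusted *p* = 0.0408 without and 0.0582 with it) and *THBS1* (thrombospondin-1) gained it (0.467 and 0.017).

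On the inner side of the membrane, 5 of 17 linkers were upregulated and 2 downregulated, beside 16.1% and 19.1% of all genes. Talin (*TLN1*), which switches integrins on and was the most abundant per kilobase by the mean of the 4 libraries, had a log2 fold change of -0.34 (adjusted *p* = 0.169 in edgeR), and in treated CHLA-266 it stood below *VCL* (vinculin), at 2250 against 3213 counts per kilobase. The upregulated linkers with a log2 fold change of at least 1 were *TNS1* (3.47), *LIMS2* (3.05), and the kindlin *FERMT1*, which had 0 counts in both untreated libraries and 70 and 46 in treated BT-16 and CHLA-266, at least 27.8-fold and 18.2-fold higher. *PARVB*, a parvin that joins integrin-linked kinase to actin, fell from 8137 to 2617 and from 6371 to 2225 counts (-1.33, adjusted *p* = 0.000569). Of 5 kinases and adaptors, 0 were upregulated (also 0 by DESeq2 and limma and 0 at an unadjusted *p* under 0.05) and 1 was downregulated, and the adaptor *CRK*, the most abundant per kilobase, had a log2 fold change of -0.27 (adjusted *p* = 0.212). Of 4 hemidesmosome genes, 1 was upregulated and 1 downregulated, and *PLEC* (plectin), the most abundant per kilobase, had a log2 fold change of 0.20 (adjusted *p* = 0.443). The tetraspanins, which sit beside laminin-binding integrins, moved in both directions, with *CD82* (2.66, adjusted *p* = 0.00151) and *CD9* (1.04, adjusted *p* = 0.00331) upregulated and *CD81* downregulated.

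**Figure D4:**
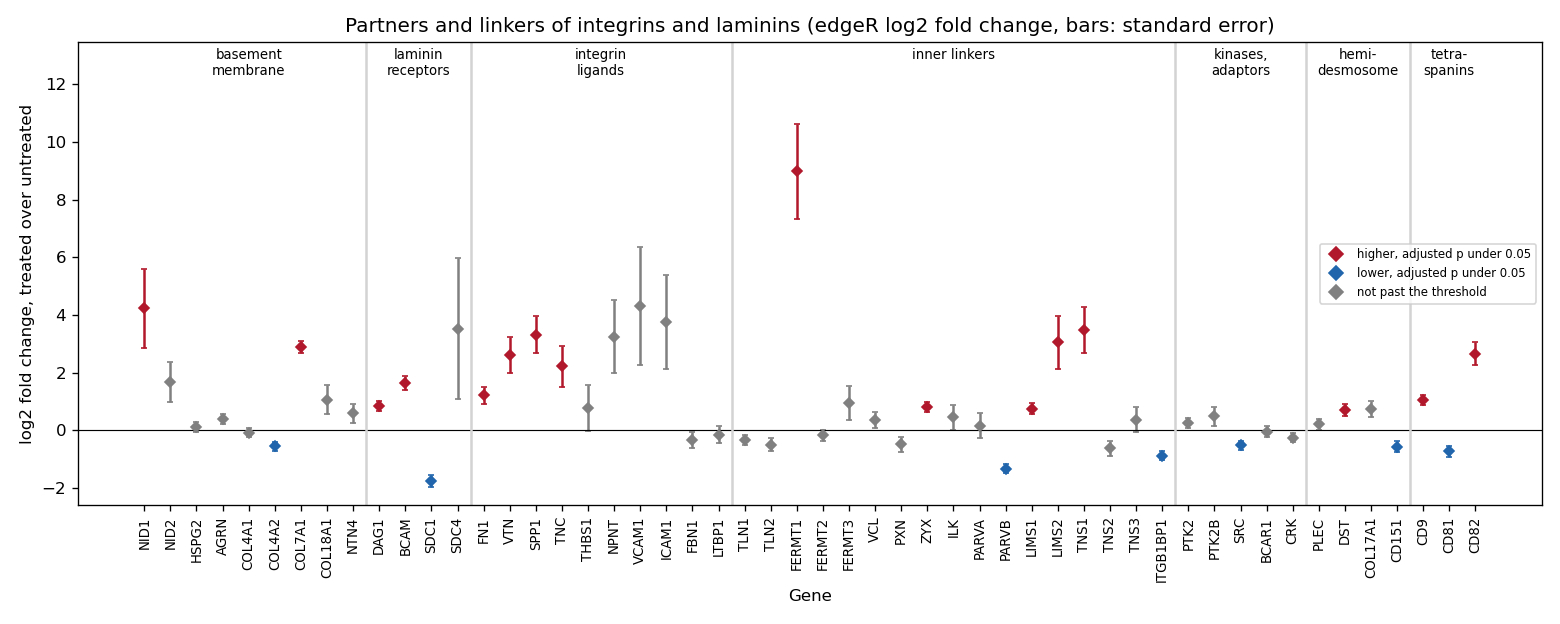
Each diamond is the edgeR log2 fold change of treated over untreated cells for 1 of the 52 partner and linker genes, with its standard error as a bar and colored by its call at an adjusted *p* under 0.05. *BCAM*, *COL7A1*, *SPP1*, and *CD82* lie above and *SDC1* and *PARVB* below the zero line with short bars, and the highest point, *FERMT1*, had 0 untreated counts, so that its fitted value is no bound.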

How the data were processed

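RNA of untreated and treated BT-16 and CHLA-266 cells was sequenced, with 1 library per cell line and condition. Libraries were made with a stranded kit from small RNA amounts and sequenced with paired ends. According to the methods and the submitters' processing notes, the authors used bcl2fastq 2.20, trimmed reads, aligned them to hg38 with STAR, counted them per gene, and removed genes of the sex chromosomes and genes counted repeatedly. The deposited estimated counts per gene symbol are not normalized, and rounding touched 5 values in 2 genes. The authors also deposited log2 values from the variance-stabilizing transformation (VST) of DESeq2 for 17553 genes, which served only an alternative. The strand setting and the counting of read pairs are not given in the sources used here. Odd values made up 20.5% to 34.2% of counts from 1 to 20, so counting intervals are too narrow if mates were counted separately.

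The 383 symbols with a total of 0 were left out, which left 18066 genes for edgeR 4.0.16 in R 4.3.3 (quasi-likelihood test, TMM, no cell line term, Benjamini-Hochberg adjustment over all genes tested, threshold 0.05). The smallest two-sided *p* of an exact permutation test with 2 libraries per condition is 0.333, and edgeR borrows its estimate of the spread from all genes. Pairing follows from the shared cell line, and within a line the deviations of the 2 libraries from their condition means correlated at 0.257 across 12620 genes. Alternatives were a block for the cell line, DESeq2 1.42.0 without and with this block, limma 3.58.1 on VST values, DESeq2 size factors, upper-quartile factors, library totals, 2 filters on low counts, halved counts, and each library left out in turn. Log2 ratios within a line used TMM-normalized counts with 0.5 counts added and exact Clopper-Pearson 95% intervals. Levels were divided by the length of all exons in GENCODE 44 (hg38), in which 18357 symbols had a length.

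All 38 genes enter the counts and sums, but values of 1 subunit gene and 1 marker gene are not reported here. Values in all libraries are given for genes that were called, reached 500 counts in any library, or moved in opposite directions in the lines with intervals that exclude 0, and of the partner genes those called with an absolute log2 fold change of at least 1 or most abundant per kilobase (mean of the 4 libraries) in their group are named, with a few others chosen after their values were seen. The genes and the lists were chosen with earlier results of these data known. The test script was tried on simulated counts in which 200 genes differed between the conditions by 2 log2 units. When both lines shared 1 mean per gene, edgeR found 174 of these genes without the block and 172 with it. When each line had its own means, it found 0 without the block and 175 with it. The main test has no block, so it can miss changes where the lines differ.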

Additional observations from a re-analysis of the deposited data

Results flagged for a closer look

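*LAMC1* and *ITGB8* moved in opposite directions in the cell lines. The log2 ratio of treated to untreated cells for *LAMC1* stood at -0.402 in the BT-16 line but at 0.429 in the CHLA-266 line, whereas *ITGB8* gave 0.143 in the BT-16 line and -0.435 in the CHLA-266 line. The counting intervals exclude 0 in each case, but the difference between the lines was not tested, because each line had 1 library per condition.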

How the results depend on the processing

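Of the 38 genes, *ITGA6*, *ITGAV*, *ITGA7*, *ITGA9*, *ITGB5*, and *LAMC3* were called in the same direction in all 14 alternatives, and *ITGAE* in 8 of 14. *ITGA1*, *ITGAM*, *ITGAX*, and *LAMA1* were called in the same direction in all 13 that tested them, since the 10-count filter left them out. The cell line as a replicate block gave 21 upregulated and 4 downregulated genes in place of 16 and 3, and the 6 added calls were *ITGA3*, *ITGA8*, *ITGA10*, *ITGB2*, *LAMA4*, and *LAMA5*. With at least 10 counts in every library, which leaves 26 of the genes, 9 were upregulated, and with 1 library left out 12 to 17 were upregulated and 2 to 4 downregulated. The median log2 fold change of all genes was 0.239 with TMM, 0.308 with DESeq2 size factors, 0.465 with library totals, 0.587 with upper-quartile factors, and 0.00516 with the 10-count filter, and values of single genes shift with it.

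The sign turned for genes that were not called. *ITGB1* was 0.009 with DESeq2 size factors, DESeq2 with and without block, and limma, 0.289 with upper-quartile factors, 0.169 with library totals, and 0.123 with the 10-count filter, and *ITGB8* was 0.175, 0.058, and 0.010 in the last 3. With 1 library left out, the log2 fold change ranged from -0.980 to 2.678 for *ITGA2*, -0.206 to 0.481 for *ITGA2B*, -0.456 to 0.521 for *ITGB3*, -0.108 to 1.470 for *ITGB7*, -0.410 to 0.119 for *ITGB8*, -0.170 to 0.732 for *LAMA2*, -0.060 to 0.303 for *LAMB1*, and -0.225 to 0.246 for *LAMC1*. The difference of *ITGAV* between the lines ranged from -0.239 to 1.037. Without treated BT-16 the log2 fold change of *LAMA5* was -1.487, a value into which the difference between the lines enters.

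Downregulated genes numbered 1895 over all genes with upper-quartile factors, and 3 of the partners with upper-quartile factors, library totals, and the 10-count filter, and 3 to 9 with 1 library left out. Between the lines, 0 genes were called higher and 0 lower with the cell line alone or with 1 library left out (then without the condition, since no spread would remain), 2 higher with DESeq2 size factors and upper-quartile factors (*ITGAV* added, adjusted *p* = 0.037 and 0.045 in edgeR), and 1 lower with edgeR's filter on low counts (*ITGA2* at 0.0526). The causes were not tested.

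In the order untreated and treated BT-16, then untreated and treated CHLA-266, the share of *ITGAV* was 63.64%, 63.15%, 72.41%, and 72.52% with raw counts and 55.61%, 55.33%, 65.03%, and 66.46% with canonical transcripts. That of *LAMA5* was 84.45%, 76.25%, 66.97%, and 44.04%, and 82.35%, 73.23%, 63.37%, and 39.98%. The ratio of alpha to beta chains was 0.911, 1.88, 0.974, and 2.43 with raw counts and 0.579, 1.19, 0.612, and 1.47 with canonical transcripts.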
